A study of Caenorhabditis elegans with 32 samples.

Results

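The 35 genes described here make up the autophagy and mitophagy machinery of Caenorhabditis elegans as a fixed list: 4 genes of the induction complex, 3 of the PI3-kinase complex, 6 of membrane growth, 11 of the conjugation systems, 4 of cargo selection, 4 of mitophagy, 2 of fusion with lysosomes and the transcription factor hlh-30. They are a list of named genes, drawn up with earlier results of these data known, and all 35 were among the 25605 genes tested. Expression was measured in whole worms at adult day 7 on 1-colour Agilent arrays. The strains were wild type N2, the single mutant csa-1 with allele tm4539, the single mutant csb-1 with allele ok2335, and a double mutant that carried both alleles (csa-1(tm4539);csb-1(ok2335)). The csa-1 and csb-1 genes are the worm counterparts of the human Cockayne syndrome genes CSA and CSB, which act in the repair of DNA lesions that block transcription. Each strain received either vehicle (water) or 500 µM nicotinamide riboside (NR), a precursor of NAD+, from the L4 larval stage on, with 4 arrays in each of the 8 groups and 32 in all. According to the methods, each mutant strain had been backcrossed, and worms were kept with FUDR, a drug that stops DNA synthesis and prevents progeny, unless noted otherwise. The mutations were present in every cell of the worm.

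Autophagy encloses part of the cytoplasm in a double membrane, the autophagosome, and delivers it to lysosomes for breakdown. The UNC-51 kinase complex starts the process, the VPS-34 lipid kinase with BEC-1 marks the membrane, ATG-9 and ATG-2 with WIPI-type proteins let it grow, and 2 ubiquitin-like systems attach LGG-3 to ATG-5 and LGG-1 or LGG-2 to lipid. Receptors such as SQST-1 bring selected cargo, and DCT-1, FNDC-1 and the PINK-1 and PDR-1 pair act in mitophagy, the removal of mitochondria. In worms autophagy is best known for clearing protein granules and paternal mitochondria in embryos and for its part in several forms of long life.

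The signal of each gene is given as a Z-score, the number of SDs by which its log2 intensity lay from the mean of all gene spots of the same array. A difference of Z-scores was turned into a log2 change with the mean SD of log2 intensity over arrays, 3.74. Differences were tested with limma across all 8 groups, and a gene was called where the p-value adjusted by the Benjamini-Hochberg method over all 25605 genes was at most 0.05. Standard errors are given as SE. Where groups are said not to overlap, the share of all genes that do the same is not given. The methods state 3 biological replicates per group, but neither they nor the labels say how the 4 arrays of a group relate to them, so p-values measure the spread between these arrays, part of which may be technical. In whole worms fewer cells of a type and less RNA per cell cannot be told apart.

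Every group lay on 1 slide of its own, so slide and group cannot be told apart, and the 4 vehicle slides were scanned before the 4 NR slides. Between 46.9% and 78.4% of spots were well above background, the lowest in N2 vehicle replicate 1. Of the 2 targeted genes, a csb-1 probe was lower by 2.63 on the log2 scale in csb-1 and by 2.98 in the double mutant than in N2 on vehicle (exact permutation test, two-sided p = 0.0286 each, the smallest that 4 arrays against 4 allow), whereas the other 6 csb-1 probes were not lower there (0.00 to 0.13 in csb-1 and 0.17 to 0.73 in the double mutant). A csa-1 probe did not separate the csa-1 mutants from N2 on vehicle. On NR it was lower than in N2 by 1.37 in the double mutant (exact permutation p = 0.0286), and csa-1 gave -0.48 (p = 0.371). The array labelled csa-1 NR replicate 4 went against its label, with a csb-1 probe at a Z-score of -1.22 where the other arrays of its group lay between -0.05 and 0.00. Its csa-1 probe stood at 0.21, where the other arrays of the group lay between -0.33 and -0.26. It was kept as labelled. Values without it are given for the members called, the differences between mutant strains and the counts of the gene lists. They are not given for single pairs of groups or for tissue markers. Marker genes showed intestine, muscle, neuron and germ line in all groups, with 5 of 5, 6 of 6, 5 of 6 and 6 of 6 markers well above background on all arrays, while only 1 of 6 hypodermal markers was.

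Few members of the autophagy machinery were called in any of these comparisons, but few of all genes were called either. The share of members called was above that of all genes in csa-1 against N2 and for NR in csb-1. It was below that of all genes in the others. Against N2 on vehicle, 2 of the 35 genes were called in csa-1, beside 1.14% of all genes, 0 in csb-1, beside 0.914%, and 0 in the double mutant, beside 1.73%. NR against vehicle gave 0 called members in N2, beside 2.11%, 1 in csa-1, beside 5.31%, 3 in csb-1, beside 4.67%, and 1 in the double mutant, beside 4.9%. At an unadjusted p under 0.05 the members numbered 12 higher and 4 lower in csa-1 against N2 (all genes 27.8%), 0 and 1 in csb-1 (10.3%) and 2 and 3 in the double mutant (19.6%). For NR the same counts were 0 and 0 in N2 (12.7%), 1 and 3 in csa-1 (20.5%), 8 and 1 in csb-1 (20.1%) and 4 and 1 in the double mutant (16.9%). The median change of the 35 genes stayed between -0.07 and 0.09 on the log2 scale in each of these 7 comparisons, against -0.02 to 0.03 for all genes. The 3 comparisons with N2 share the N2 vehicle arrays.

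**Figure D1:**
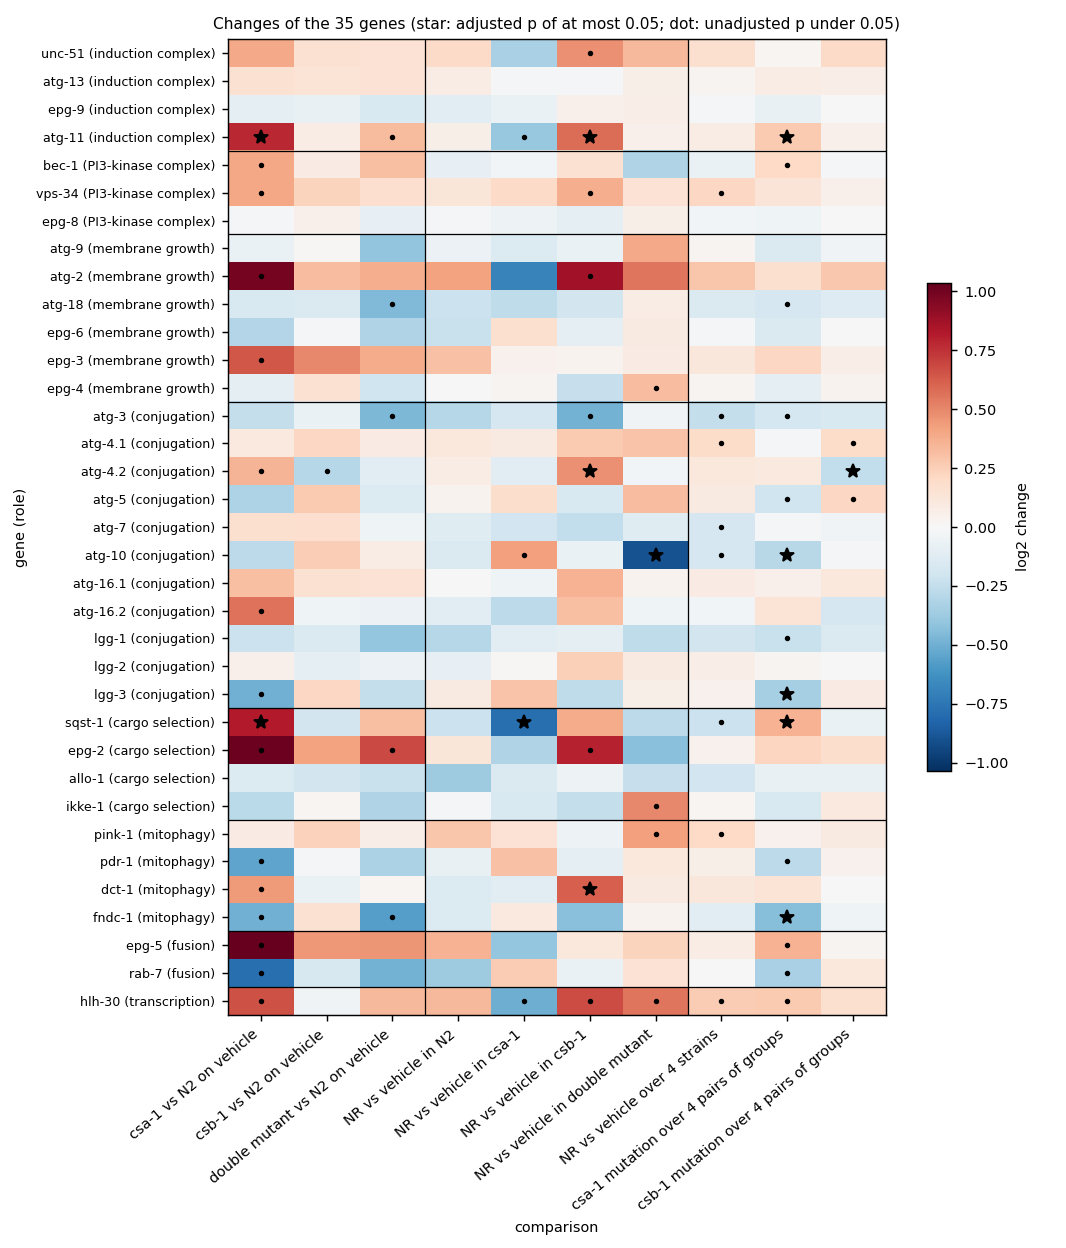
Log2 change of the 35 genes (rows, ordered by role) in each of the first 10 comparisons (columns), from the limma fit of 32 arrays, with a star where the adjusted p is at most 0.05 and a dot where only the unadjusted p is under 0.05. Most cells are near 0, and the deepest NR decrease is atg-10 in the double mutant at -0.90.

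The 3 pooled comparisons used all 32 arrays. Averaged over the 4 strains, NR called 0 members, beside 13.2% of all genes (unadjusted 4 higher and 4 lower, all genes 27%). The csa-1 mutation, averaged over its 4 pairs of groups, called 5, of which 2 rose and 3 fell, beside 14% (unadjusted 5 and 9, all genes 31.7%). The csb-1 mutation called 1, which fell, beside 3.94% (unadjusted 2 and 1, all genes 17%). The share of members called for the csa-1 mutation was close to the background share. With the slide as a random block, 0 members were called for either mutation. Each group had its own slide, so that fit cannot tell slide variation from an effect that differed between pairs of groups. A call lost under it, here or below, is therefore not evidence of a slide effect.

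The members differed widely in how far their group means lay apart. The span from the lowest to the highest of the 8 group means ran from 0.14 on the log2 scale for epg-8, which encodes a partner of BEC-1, to 1.21 for epg-2, which encodes a nematode scaffold for protein granules. The SD between arrays of a group lay between 0.15 for atg-4.2 and 0.52 for atg-2. The widest spans after epg-2 were those of atg-2 at 1.20, atg-10 at 1.08, sqst-1 at 1.04 and epg-5 at 1.03. Of these, atg-10 varied least between the arrays of a group, with an SD of 0.22. N2 on vehicle had the lowest mean for epg-2, atg-2 and epg-5.

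**Figure D2:**
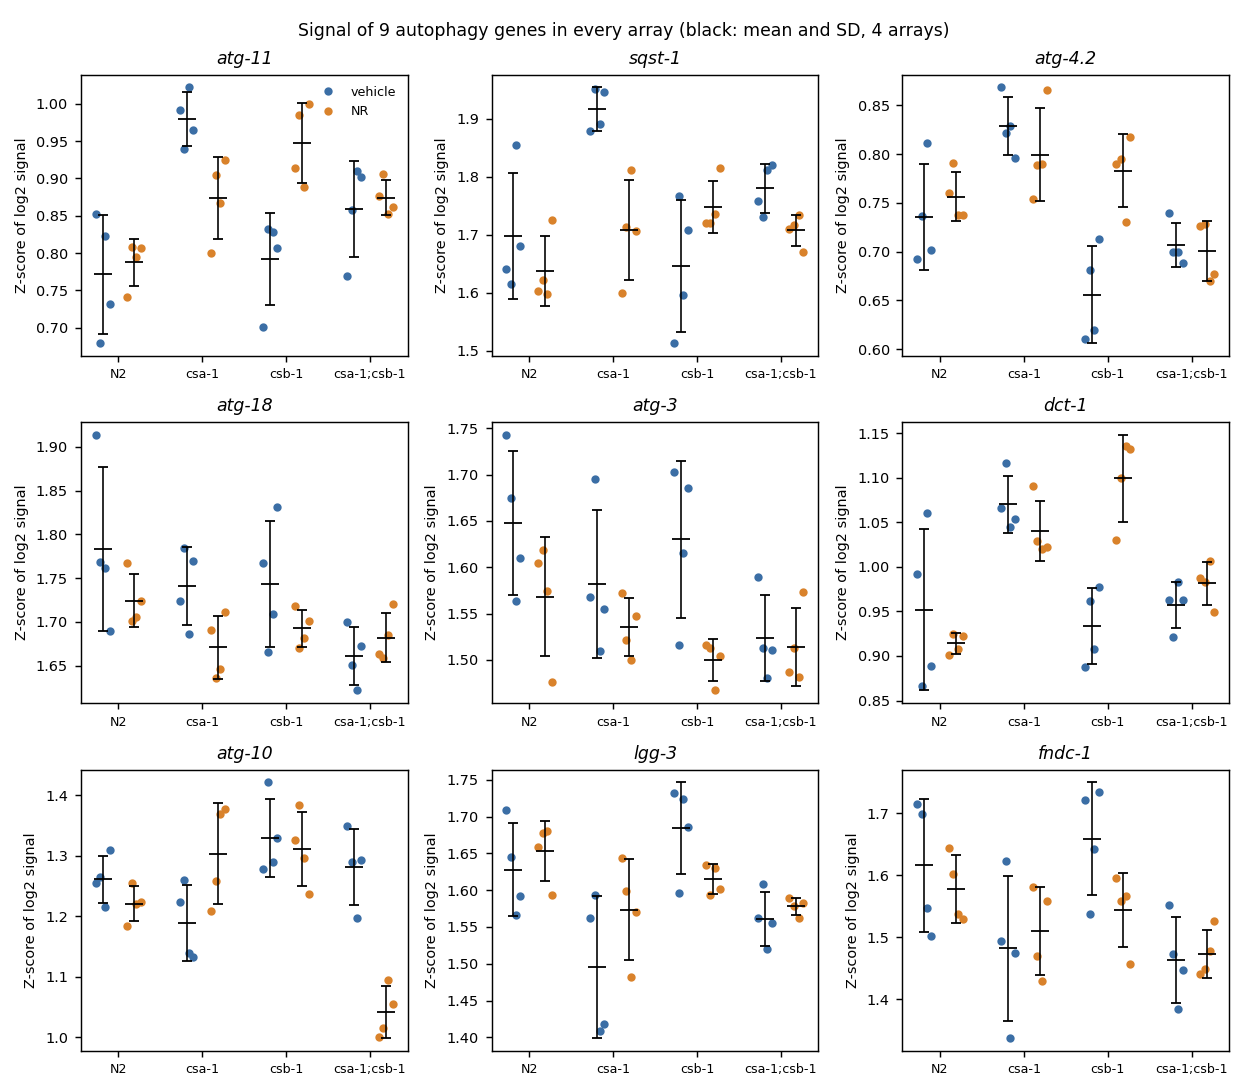
Z-score of the log2 signal of 9 autophagy genes in each of the 32 arrays (points, blue vehicle and orange NR, 4 per group), with the mean and SD of each group in black and a y axis that differs between panels. The 4 NR arrays of the double mutant lie below every other array for atg-10, and the 4 csa-1 vehicle arrays lie above every other array for sqst-1.

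Within the induction complex, atg-11 was the member that changed. The gene, listed as epg-7 in the current RefSeq table, encodes a scaffold protein of the FIP200 type that binds SQST-1. On vehicle its Z-scores were 0.85, 0.68, 0.82 and 0.73 in N2 and 0.99, 0.94, 1.02 and 0.97 in csa-1. All csa-1 arrays lay above all N2 arrays, and the log2 change was 0.78 (SE 0.16, limma adjusted p = 0.0412, n = 4 each). In csb-1 the values were 0.70, 0.83, 0.83 and 0.81 on vehicle and 0.91, 0.98, 0.89 and 1.0 on NR. These groups did not overlap either, and atg-11 rose by 0.58 (SE 0.16, adjusted p = 0.0313). In csa-1, whose vehicle arrays had the highest mean of the 8 groups, the change on NR was -0.39 (unadjusted p = 0.0193, adjusted p = 0.147), and -0.46 with csa-1 NR replicate 4 left out (adjusted p = 0.163). The other 3 genes of the complex had 0 calls. Among them the kinase gene unc-51 had the widest span of group means at 0.63, and epg-9, whose product is the ATG101 counterpart, the narrowest at 0.17.

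None of the 3 PI3-kinase genes was called in any comparison. The lipid kinase gene vps-34 gave 0.40 in csa-1 against N2 (adjusted p = 0.128) and 0.21 for NR over the strains (adjusted p = 0.0928). Its partner bec-1 gave 0.40 in csa-1 (adjusted p = 0.155), from 31 arrays because 1 array carried an outlier mark for its probe. The 6 membrane growth genes had 0 calls as well. The lowest p-value of the whole list in the double mutant against N2 was that of atg-18, which encodes a WIPI-type protein that binds the lipid made by VPS-34. Its Z-scores were 1.91, 1.77, 1.76 and 1.69 in N2 and 1.70, 1.65, 1.62 and 1.67 in the double mutant, so the lowest N2 array fell within the range of the double mutant. The log2 change was -0.46 (SE 0.15, unadjusted p = 0.00578, adjusted p = 0.116), and 2 dimmer probes of atg-18 gave -0.11 and -0.12. The size depended on the processing. It was -0.57 without N2 vehicle replicate 4 (adjusted p = 0.0324), but -0.29 with scaling to the 75th percentile (0.2), -0.15 with quantile normalization (0.478) and -0.14 with normexp (0.404). The related epg-6 gave -0.31 in the same comparison (adjusted p = 0.312). The lipid transfer gene atg-2 had the largest positive value of the group, 0.99 in csa-1 against N2 (adjusted p = 0.0894).

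The conjugation genes held the clearest NR response. ATG-10 is the E2-like enzyme that joins LGG-3 to ATG-5. In the double mutant the Z-scores of atg-10 were 1.35, 1.29, 1.20 and 1.29 on vehicle and 1.0, 1.01, 1.1 and 1.06 on NR. Every NR array lay below every vehicle array, and atg-10 fell by 0.90 on the log2 scale (SE 0.17, adjusted p = 0.00202), a 1.87-fold lower level. Sperm markers were higher without overlap in the same comparison, with a mean Z-score over 5 of 5 tested genes of 0.43 (arrays 0.37 to 0.48) on vehicle and 0.69 (0.68 to 0.71) on NR. Germ line markers stood at 1.51 (1.49 to 1.54) and 1.61 (1.56 to 1.65) over 6 of 6 genes, and the part of either in the fall of atg-10 was not tested. In the other strains the NR values of atg-10 were -0.15 in N2, 0.43 in csa-1 (adjusted p = 0.137, or 0.34 with 0.367 when csa-1 NR replicate 4 was left out) and -0.07 in csb-1. The gene was read by a single probe. Averaged over its pairs of groups, the csa-1 mutation gave -0.29 for atg-10 (SE 0.084, adjusted p = 0.025, but 0.241 with the slide as a random block and 0.0782 with quantile normalization). The 4 pairs were not alike: -0.27 and -0.18 on vehicle without and with the csb-1 mutation, and 0.31 and -1.01 on NR. On that comparison the 16 arrays with the csa-1 mutation had a lowest, median and highest Z-score of 1.0, 1.22 and 1.38 and the other 16 arrays 1.18, 1.27 and 1.42, so the ranges overlapped.

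LGG-3, the ubiquitin-like protein that ATG-10 transfers, is the ATG12 counterpart. Its Z-score ran from 1.41 over a median of 1.57 to 1.64 in the 16 arrays with the csa-1 mutation and from 1.57 over 1.64 to 1.73 in the 16 without it. The ranges overlapped, and lgg-3 fell by 0.35 with the mutation (SE 0.082, adjusted p = 0.0079, but 0.0691 with the slide as a random block). With quantile normalization the value was -0.19 (adjusted p = 0.0669) and with normexp -0.20 (0.019). All 4 pairs of groups were negative, from -0.50 to -0.14. The protease gene atg-4.2, whose product trims LGG-1 before it is joined to lipid, was lower with the csb-1 mutation in 3 of its 4 pairs of groups (-0.30 and -0.46 on vehicle, -0.37 on NR in the csa-1 background) and 0.10 higher in the pair on NR without the csa-1 mutation. Its lowest, median and highest Z-scores were 0.61, 0.71 and 0.82 in the 16 arrays with the mutation and 0.69, 0.79 and 0.87 without, a log2 change of -0.26 (SE 0.064, adjusted p = 0.0183, but 0.231 with the slide as a random block). On vehicle alone the csb-1 strain gave -0.30 against N2 (SE 0.13, unadjusted p = 0.0286, adjusted p = 0.39), the lowest p-value of the list in that comparison.

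NR raised atg-4.2 in the csb-1 strain. Its Z-scores were 0.61, 0.68, 0.62 and 0.71 on vehicle and 0.79, 0.79, 0.73 and 0.82 on NR, without overlap, and the log2 change was 0.48 (SE 0.13, adjusted p = 0.0289). The call was lost without csb-1 vehicle replicate 1 or 3 or csb-1 NR replicate 1, 2 or 4 (adjusted p 0.0696 to 0.109). The paralogue atg-4.1 gave 0.27 there (adjusted p = 0.381) and 0.19 for the csb-1 mutation (adjusted p = 0.249), the opposite sign to atg-4.2. The remaining pairs had 0 calls: in csa-1 against N2 atg-16.1 gave 0.31 and atg-16.2 gave 0.56 (adjusted p = 0.264 and 0.0645), and lgg-1 gave -0.22 and lgg-2 gave 0.05 (adjusted p = 0.475 and 0.838). The E2-like enzyme gene atg-3, which serves LGG-1 and LGG-2, had the lowest p-value of the list for NR in N2, at -0.30, and for NR over the 4 strains. Over the strains its lowest, median and highest Z-scores were 1.47, 1.51 and 1.62 in the 16 NR arrays and 1.48, 1.58 and 1.74 in the 16 vehicle arrays. The change of -0.25 (SE 0.086, adjusted p = 0.0554, or 0.0679 with csa-1 NR replicate 4 left out) was not called, with all NR arrays inside the vehicle range or just under it.

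In cargo selection, sqst-1 was the member that changed. It encodes the p62 counterpart, a receptor that binds ubiquitinated proteins and is itself degraded by autophagy. Its Z-scores on vehicle were 1.64, 1.62, 1.85 and 1.68 in N2 and 1.88, 1.95, 1.89 and 1.95 in csa-1, and they were 1.60, 1.71, 1.81 and 1.71 in csa-1 on NR. The csa-1 vehicle arrays lay above both other groups without overlap. The log2 change was 0.82 in csa-1 against N2 (SE 0.20, adjusted p = 0.0445) and -0.78 for NR in csa-1 (SE 0.20, adjusted p = 0.0186). Both comparisons share the csa-1 vehicle arrays. With csa-1 NR replicate 4 left out, the NR change was -0.78 with an adjusted p of 0.0481. Body wall muscle markers moved with sqst-1 in these groups. Their mean Z-score over 6 of 6 genes was 0.91 (arrays 0.77 to 1.04) in csa-1 on vehicle. It was 0.81 (0.74 to 0.90) in N2 on vehicle and 0.71 (0.55 to 0.80) in csa-1 on NR. Intestinal, neuronal, hypodermal and yolk markers were likewise highest in csa-1 on vehicle among these groups, but germ line and sperm markers were not. In the double mutant muscle markers stood at 0.95 on vehicle and on NR. There sqst-1 had means of 1.78 and 1.71, below 1.92 in csa-1 on vehicle. On NR the mean of the muscle markers was lower in csa-1 than in N2 (0.71 and 0.79), where that of sqst-1 was higher (1.71 and 1.64). The arrays of these 2 groups overlapped for the muscle markers (0.55 to 0.80 and 0.74 to 0.87) and for sqst-1 (1.60 to 1.81 and 1.60 to 1.73). The csa-1 values include csa-1 NR replicate 4, and the marker mean without it is not given. The part of these markers in the result was not tested. Over its pairs of groups the csa-1 mutation raised sqst-1 by 0.36 (SE 0.099, adjusted p = 0.019, but 0.147 with the slide as a random block), and atg-11 by 0.27 (SE 0.079, adjusted p = 0.0253, but 0.203). In 3 of the 4 pairs of groups both genes were higher with the mutation, and on NR both were lower in the double mutant than in csb-1 (-0.15 for sqst-1 and -0.27 for atg-11). Of the muscle markers 5 of 6 were called higher with the csa-1 mutation (median 0.57), and their part was not tested here either. The 16 arrays with the mutation ranged over Z-scores of 1.60 to 1.95 (median 1.75) for sqst-1 and the other 16 over 1.51 to 1.85 (median 1.69). For atg-11 the same ranges were 0.77 to 1.02 (median 0.90) and 0.68 to 1.0 (median 0.82). The granule scaffold gene epg-2 gave 1.01 in csa-1 against N2, the highest value of its group (adjusted p = 0.0536). The kinase gene ikke-1, which acts with ALLO-1 on paternal mitochondria, gave the lowest of the group there at -0.28 (adjusted p = 0.363).

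Of the 4 mitophagy genes, dct-1 was called for NR in csb-1, beside 4.67% of all genes, and fndc-1 for the csa-1 mutation, beside 14%. DCT-1 is the counterpart of BNIP3 and NIX, receptors in the outer mitochondrial membrane. In csb-1 its Z-scores were 0.89, 0.96, 0.91 and 0.98 on vehicle and 1.03, 1.1, 1.14 and 1.13 on NR. The groups did not overlap, and dct-1 rose by 0.62 on the log2 scale (SE 0.14, adjusted p = 0.00882), a 1.54-fold higher level. The call was lost with the compared groups alone (limma adjusted p = 0.0708). The mean Z-score of dct-1 on vehicle and on NR was 1.07 and 1.04 in csa-1 and 0.96 and 0.98 in the double mutant. With csa-1 NR replicate 4 left out, the log2 change on NR in csa-1 was -0.09. In N2 the values were 0.99, 0.87, 1.06 and 0.89 on vehicle and 0.90, 0.92, 0.91 and 0.92 on NR, with the NR arrays inside the vehicle range. Neuronal markers moved the same way in csb-1, with a mean Z-score over 6 of 6 genes of 0.84 (arrays 0.78 to 0.93) on vehicle and 0.95 (0.92 to 0.98) on NR, while the body wall muscle markers stood at 0.67 and 0.64. Sperm markers differed more, at 0.26 (0.17 to 0.32) on vehicle and 0.56 (0.54 to 0.58) on NR, with 3 of 5 called higher (median 1.18), and over the 4 strains 4 of 5 were called higher on NR. Germ line and yolk markers were lower on NR in csb-1, with medians of -0.45 and -0.84 and 0 and 1 called. The part of these lists in the rise of dct-1 was not tested.

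FNDC-1, the FUNDC1 counterpart, is another receptor of the outer mitochondrial membrane. The lowest, median and highest Z-scores of fndc-1 were 1.34, 1.47 and 1.62 in the 16 arrays with the csa-1 mutation and 1.46, 1.58 and 1.73 in the 16 without. It fell by 0.44 (SE 0.11, adjusted p = 0.0106, but 0.0725 with the slide as a random block), with overlapping ranges, and all 4 pairs of groups were negative. With csa-1 NR replicate 4 left out, the same 5 members were called for the csa-1 mutation, with adjusted p between 0.0094 and 0.0363, and atg-4.2 remained called for the csb-1 mutation at 0.0277. The kinase gene pink-1 gave between -0.05 and 0.43 for NR in the 4 strains, and the ubiquitin ligase gene pdr-1, the parkin counterpart, gave -0.54 in csa-1 against N2 (adjusted p = 0.125). Neither was called.

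The fusion genes epg-5 and rab-7 had 0 calls. The tether gene epg-5 gave 1.03 in csa-1 against N2 (SE 0.31, adjusted p = 0.0626) without overlap of the groups, and its probe was well above background on 28 of 32 arrays. The GTPase gene rab-7 gave -0.78 (adjusted p = 0.128). In N2 vehicle replicate 1 the Z-score was -0.92 for epg-5 and 1.70 for rab-7. Replicates 2 to 4 lay between -0.63 and -0.50 for epg-5 and between 1.23 and 1.40 for rab-7. HLH-30 is the TFEB counterpart, which switches on many autophagy and lysosome genes. Its Z-scores were 0.64, 0.52, 0.61 and 0.72 in csa-1 on vehicle and 0.47, 0.51, 0.51 and 0.47 on NR, and 0.45, 0.50, 0.45 and 0.35 in csb-1 on vehicle and 0.62, 0.57, 0.60 and 0.68 on NR. The arrays separated by treatment in both strains, downward in csa-1 and upward in csb-1, but neither change was called. Of all genes, 20.5% and 20.1% had an unadjusted p under 0.05 in these comparisons. The log2 changes were -0.51 (SE 0.23, adjusted p = 0.201, or -0.49 with 0.348 when csa-1 NR replicate 4 was left out) and 0.68 (adjusted p = 0.0862), and the double mutant gave 0.55 (adjusted p = 0.192). A second hlh-30 probe gave -0.43, 0.67 and 0.51 for the same 3 changes.

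Whether NR acted differently between strains was tested as the difference of 2 NR changes. Against N2, 0 members were called for csa-1, beside 0.0391% of all genes, for csb-1, beside 0.0781%, and for the double mutant, beside 0.141%. At an unadjusted p under 0.05 there were 3, 4 and 1 members (all genes 8.91%, 7.04% and 6.57%). The largest difference from N2 by p-value was dct-1 in csb-1 at 0.76 (SE 0.20, unadjusted p = 0.000666, adjusted p = 0.26). The same test on the interaction of both mutations on vehicle called 0 members, beside 0.0195% (4 unadjusted, all genes 11.6%), with a median over the 35 genes of -0.23 against 0.00 for all genes.

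The 3 differences between mutant strains were chosen after the values had been seen. The NR change of atg-10 was lower in the double mutant than in csa-1 by 1.33 on the log2 scale (difference -1.33, SE 0.24, adjusted p = 0.00234), the 1 member called there, beside 3.27% (5 unadjusted, all genes 16.8%). With csa-1 NR replicate 4 left out the difference was -1.24 with an adjusted p of 0.00548. Between the double mutant and csb-1, 0 members were called, beside 0.102% (8 unadjusted, all genes 11.8%), and atg-10 gave -0.83 (adjusted p = 0.137). That difference was called at -0.85 with scaling to the 75th percentile (adjusted p = 0.0458), at -1.01 with quantile normalization (0.0385) and at -1.10 with normexp (0.00538). Between csb-1 and csa-1, 0 were called, beside 0.285% (11 unadjusted, all genes 17%). There sqst-1 gave 1.16 (SE 0.28, adjusted p = 0.0606), atg-11 gave 0.97 (SE 0.22, adjusted p = 0.0545) and hlh-30 gave 1.18 (SE 0.32, adjusted p = 0.0835). This count of 0 depended on the processing. With csa-1 NR replicate 4 left out atg-11 was called (1.04, adjusted p = 0.037), beside 0.566% of all genes, while sqst-1 and hlh-30 were at 0.0664 and 0.1. With scaling to the 75th percentile or quantile normalization atg-11, sqst-1, hlh-30, dct-1 and atg-2 were called, and with normexp 8 members were. All genes called rose too, from 73 to 913, 871 and 1684 under these settings. The replicate block called atg-11 and sqst-1 (adjusted p = 0.0434 and 0.0427) among 157 genes, and the filter on dim probes called both among 184. The atg-10 difference between the double mutant and N2 was -0.75 (SE 0.24, adjusted p = 0.294) and was called only with normexp (-0.91, adjusted p = 0.0374) among the alternatives run.

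**Figure D3:**
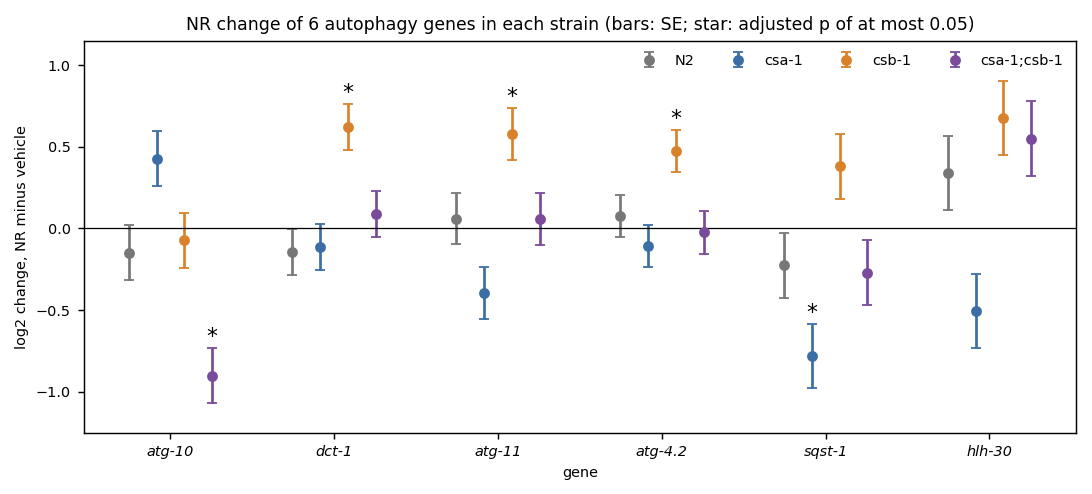
Log2 change on NR against vehicle for 6 autophagy genes (x axis) in each of the 4 strains (colours), as limma estimates from 4 arrays a group with their SE as bars and a star at an adjusted p of at most 0.05. The atg-10 value of the double mutant lies at -0.90 and the dct-1 value of csb-1 at 0.62.

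The calls in csa-1 against N2 depended on single arrays. Leaving out N2 vehicle replicate 3 raised the count from 2 to 16 of the 35 members and that of all genes from 292 to 6454, or 25.2%. Leaving out N2 vehicle replicate 4 gave 6 members and 2921 genes, or 11.4%. Leaving out N2 vehicle replicate 1 or 2, or csa-1 vehicle replicate 1, 3 or 4, gave 0 of both. The values moved less than the counts. The change of atg-11 stayed positive in each of these fits, and was 0.88 without N2 vehicle replicate 1 and 0.67 without N2 vehicle replicate 2. For NR in csb-1, dct-1 was the member still called without csb-1 vehicle replicate 1, csb-1 NR replicate 2 or csb-1 NR replicate 4, and atg-11 also lost its call without csb-1 vehicle replicate 4. The count was 4 without N2 vehicle replicate 1, beside 7.12% of all genes. For NR in csa-1, sqst-1 was no longer called without csa-1 vehicle replicate 2, csa-1 vehicle replicate 4 or csa-1 NR replicate 1, nor with scaling to the 75th percentile (adjusted p = 0.0642), quantile normalization (0.054) or the compared groups alone (0.142). The fall of atg-10 in the double mutant was called in each of 18 alternative settings, between -1.01 and -0.82.

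**Figure D4:**
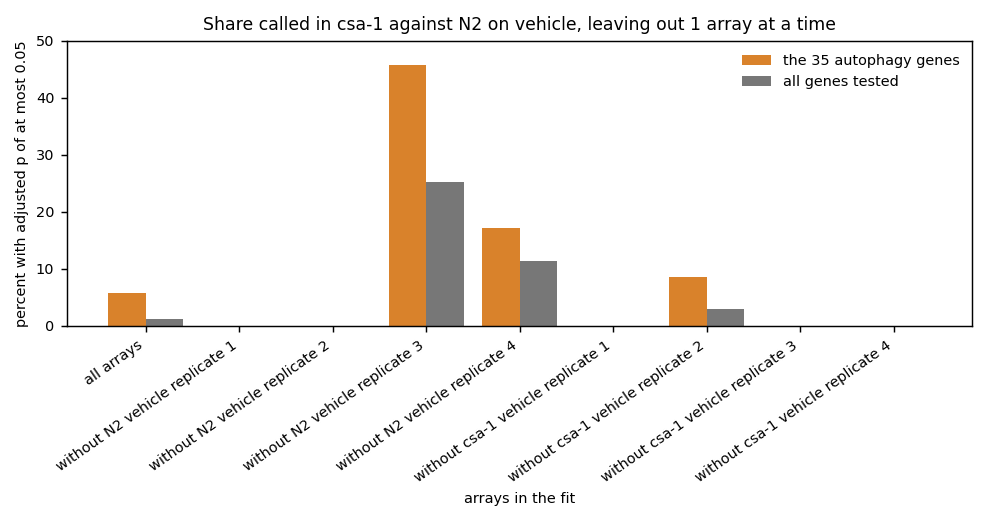
Percent of genes with an adjusted p of at most 0.05 in csa-1 against N2 on vehicle (y axis), for the 35 autophagy genes and for all genes tested, with all arrays and with 1 array left out at a time (x axis). Both shares peak without N2 vehicle replicate 3 and are 0 without 5 of the other arrays.

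Among genes that act next to the autophagy machinery, most calls fell on the lysosomal hydrolases, the proteases, lipases and other enzymes that digest what autophagosomes deliver. Of 31 hydrolase genes tested, 17 fell and 1 rose with the csb-1 mutation, a median log2 change of -0.43 (all genes 0.00), beside 2.48% of all genes called lower. The aspartic protease gene asp-13 gave -1.66, the lipase genes lipl-2 and lipl-3 gave -1.41 and -1.04, and the cathepsin B-type genes cpr-8 and cpr-1 gave -0.99 and 0.69. With the slide as a random block 13 fell. On NR over the 4 strains 9 fell and 1 rose, with a median of -0.27 and beside 4.76% of all genes called lower, among them asp-13 at -1.58, lipl-5 at -1.15 and lipl-4 at -0.97, with cpr-3 higher at 0.38. With the slide as a random block 7 fell. With the csa-1 mutation 9 rose and 0 fell, with a median of 0.22 and beside 9.55% of all genes called higher, led by cpr-8 at 0.78 and asp-8 at 0.74, but 2 rose with the slide as a random block. Scaling each array to its 75th percentile, which shifts the median of all genes downward, gave 17 lower hydrolase genes for the csb-1 mutation, 15 lower for NR and 6 higher for the csa-1 mutation. Under that scaling the share of all called genes that were higher went from 37.1% to 19.7% for the csb-1 mutation, from 64.1% to 29.5% for NR and from 68.2% to 55.1% for the csa-1 mutation. Yolk markers, which like many of these hydrolases are expressed in the intestine, were lower on NR in every strain, with a mean Z-score over 5 of 5 tested genes of 2.42 on vehicle and 2.26 on NR in N2 and of 2.30 and 2.08 in csb-1. Of the 5 intestinal markers tested, 4 were called higher with the csa-1 mutation (median 0.33) and 2 lower with the csb-1 mutation (median -0.03). The part of these markers in the hydrolase values was not tested. With csa-1 NR replicate 4 left out, 18 hydrolase genes were lower with the csb-1 mutation, 9 were lower on NR and 11 were higher with the csa-1 mutation.

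The other lists beside the machinery held few calls, to be read against the 13.2%, 14% and 3.94% of all genes called for NR, the csa-1 mutation and the csb-1 mutation, or 9.55% higher for the csa-1 mutation. Of 19 vesicle fusion and PI3P partner genes, vamp-7, which encodes a SNARE protein, rose on NR (0.42), and sand-1, whose product activates RAB-7, fell with the csa-1 mutation (-0.48). Of 18 nutrient and energy signalling genes, mxl-3 and pha-4 rose (0.54 and 0.37) and mxl-2 fell (-0.30) with the csa-1 mutation. All 3 encode transcription factors. Of 21 vacuolar ATPase genes, which encode the pump that acidifies lysosomes, 4 rose with the csa-1 mutation, vha-5 the most at 0.59, and vha-6 fell on NR (-0.43) and with the csb-1 mutation (-0.40). Of 7 mitochondrial dynamics genes, the fission genes fis-1 and fis-2 were called on NR over the strains in opposite directions, at 1.06 and -0.32. With the slide as a random block, the csa-1 mutation had 2 higher calls among the signalling genes and 0 calls in the vesicle fusion and ATPase lists, the csb-1 mutation had 0 calls in these 4 lists, and NR had 1 higher vesicle fusion gene, 1 lower ATPase gene and 1 higher dynamics gene. With that block 291, 325 and 1751 of all genes were called for the csa-1 mutation, the csb-1 mutation and NR. With csa-1 NR replicate 4 left out of the main fit, 2 vesicle fusion genes were lower and 3 ATPase genes higher with the csa-1 mutation. The other counts of these 4 lists stayed the same.

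**Figure D5:**
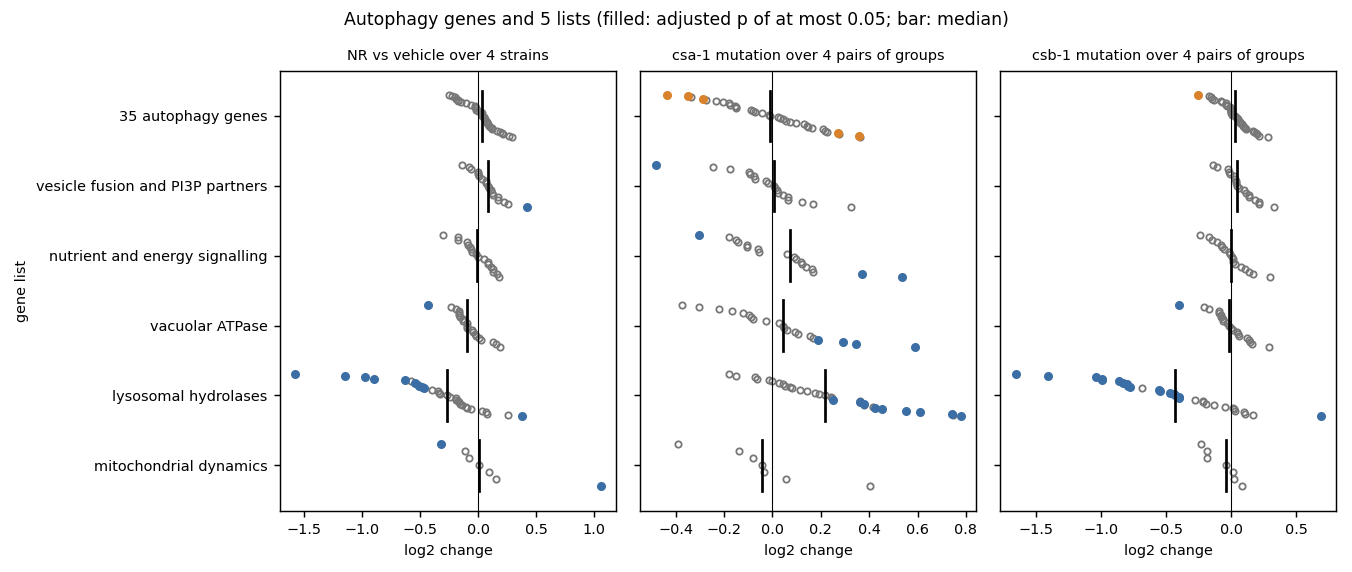
Log2 change (x axis) of each of the 35 autophagy genes and of 5 gene lists beside them (y axis) for NR, the csa-1 mutation and the csb-1 mutation (panels, limma over 32 arrays), filled where the adjusted p is at most 0.05, with the list median as a bar. The hydrolase medians lie at -0.27, 0.22 and -0.43, while the autophagy medians lie between -0.01 and 0.03.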

How the data were processed

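Total RNA (200 ng per labelling reaction) was labelled with Cy3 by the authors, hybridized and scanned, and the scanner output made with Feature Extraction 11.5.1.1 was deposited for every array. The intensity used is the deposited processed signal, which Feature Extraction had background-subtracted; it is on a linear scale without normalization across arrays. A series-wide table of scores made by the authors accompanies them. Each score equals the Z-score of an array's log signal over all spots to within 0.00503, and the table served as an alternative. The deposited files also hold outlier, saturation and background flags, and 0 columns of other samples.

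Of 45220 spots 1417 are control spots and were left out. On the 43803 gene spots lie 43603 probes, and the 50 probes with several spots were averaged. A value with an outlier flag was left out on that array only (289 probes), and 0 gene spots were saturated. Of 28476 systematic names 22730 matched the RefSeq gene table of assembly WBcel235, used for names only. The brightest probe stood for each of the 7099 genes with several probes. The 35 members had 72 probes, 21 of them with a single probe, and for 34 of them the probe used was well above background on all 32 arrays. The array count limits the precision.

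Z-scores of log2 intensity were computed per array, as in the methods, and fitted with limma 3.58.1 (under R 4.3.3), lmFit and eBayes, on all 8 groups with no covariate. The SD of log2 intensity ran from 3.17 to 4.00 over arrays. The methods give 3 biological replicates per group where 4 arrays were deposited, and all 4 were used. Alternatives were scaling to the 75th percentile, quantile normalization, normexp (offset 50, on median foreground and background) with quantile normalization, the deposited scores, the mean of all probes of a gene, a filter on dim probes, a fit of the compared groups alone, the replicate block, the slide as a random block, and each array left out in turn. Slide averages and the 3 differences between mutant strains were added after the data had been seen. Values are given in full for each member called in any of the first 10 comparisons and for the member with the smallest p in each, and others where they are the highest or lowest of their role group or belong to a paralogue pair. The members, lists and tests were chosen with earlier results of these data known. The scripts were tested on simulated data.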

Additional observations from a re-analysis of the deposited data

Results flagged for a closer look

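The NR change of atg-10 differed between the double mutant and csa-1 by a test of the difference itself. Its differences from N2 and from csb-1 were not called in the main fit. The NR change was lower in the double mutant than in csa-1 by a log2 difference of -1.33 (SE 0.24, limma adjusted p = 0.00234), and all 4 NR arrays of the double mutant lay below all 4 of its vehicle arrays. Without csa-1 NR replicate 4, the array that went against its label, the difference was -1.24 (adjusted p = 0.00548). The comparison was chosen after the values had been seen.

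The Z-score of dct-1 in csa-1 NR replicate 1, 1.09, stood apart from the other 3 arrays of its group, with a gap of 0.863 of the group's range. It was the 1 such array among 72 groups tested over 9 genes, and chance gives about 1 in 20.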

How the results depend on the processing

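Of 486 values of 18 named changes, 434 kept their direction and their side of the threshold, 44 kept the direction without the call, 8 gained a call and 0 reversed. The number of members called moved as follows, with the number of all genes called in brackets, and the cause was not tested. The main fit called 292 genes for csa-1 against N2 and 1359, 1196 and 1255 for NR in csa-1, csb-1 and the double mutant. It called 3392 for NR over the strains, 3582 and 1008 for the csa-1 and csb-1 mutations, and 36 for the double mutant minus N2. For csb-1 minus csa-1, the double mutant minus csa-1 and the double mutant minus csb-1 it called 73, 837 and 26. Scaling to the 75th percentile gave 0 for NR in csa-1 (2035). For the differences of NR changes it gave 5 in csb-1 minus csa-1 (913), 2 in the double mutant minus csa-1 (1472) and 1 in the double mutant minus csb-1 (567). Quantile normalization gave 6 for csa-1 against N2 (1248), 2 for NR in the double mutant (2005) and 3 for the csa-1 mutation (3230). It gave atg-11 in place of sqst-1 for NR in csa-1 (2341), and 5, 2 and 1 for those differences (871, 1682 and 320). Normexp with quantile normalization gave 6 for csa-1 against N2 (2640) and 6, 8 and 2 for NR in csa-1, csb-1 and the double mutant (2934, 1735 and 2436). It gave 2 for NR over the strains (3970), 7 for the csa-1 mutation (3937) and 2 for the csb-1 mutation (2025). For the double mutant minus N2 it gave 1 (121), and for the 3 differences between mutant strains 8, 6 and 2 (1684, 2230 and 536). The filter on dim probes, which kept 20903 genes, gave 5 for csa-1 against N2 (959), 1 for NR over the strains (3482) and 2 for csb-1 minus csa-1 (184). Fitting only the compared groups gave 0 for csa-1 against N2 (0), 0 for NR in csa-1 (88) and 0 for NR in csb-1 (1021). For those differences it gave 1, 2 and 1 (139, 1019 and 864). The slide as a random block gave 0 for the csa-1 mutation (291) and 0 for the csb-1 mutation (325). Slide means gave 0 for the csa-1 mutation (0) and 0 for the csb-1 mutation (11). Replicate numbers did not pair the samples (mean correlation of deviations 0.01 for the same number). With the replicate block the count was 3 for csa-1 against N2 (687), 1 for NR over the strains (3436) and 2 for csb-1 minus csa-1 (157).

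Leaving out 1 array at a time gave 0 to 16 called members for csa-1 against N2 (all genes 0 to 6454). It gave 0 to 1 for csb-1 (95 to 1264) and 0 to 2 for the double mutant (116 to 3344). NR gave 0 to 1 in csa-1 (735 to 1866) and 1 to 4 in csb-1 (555 to 1873). In the double mutant it gave 1 (658 to 1659) and over the strains 0 to 2 (2939 to 4251). The csa-1 mutation gave 5 to 10 (2376 to 6258), with 10 without N2 vehicle replicate 3, beside 24.4% of all genes. The csb-1 mutation gave 1 to 2 (798 to 1591) and the interaction 0 to 2 (1 to 1128). The difference csb-1 minus csa-1 gave 0 to 2 (4 to 229) and the double mutant minus csa-1 1 to 2 (446 to 1155). For all genes, csa-1 against N2 called 292, 897 with scaling to the 75th percentile, 1248 with quantile normalization, 2640 with normexp, 959 with the dim filter, 687 with the replicate block and 0 with only the compared groups. Array number and dim signal limit what can be detected.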
